A study of Mus musculus with 57 samples.

Results

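Interscapular brown adipose tissue (iBAT) of wt embryos at E18.5 was compared with wt somites at E12.5, gene by gene. A gene entered the comparison when its mean TPM (a transcript level that takes gene length and sequencing depth into account) was 1 or more in either tissue. Of the 56860 genes in the deposited table, 19369 met that limit, with 13762 at or above it in both tissues, 1117 in iBAT alone and 4490 in somites alone. At the limit, *Gm38067* was just inside with a mean of 1.0 TPM in somites, and the gene model ENSMUSG00000121046 was just outside with 0.999 TPM.

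The libraries belong to a study of 57 mRNA libraries from mouse embryos with and without *Hoxa5*, a transcription factor gene of the *HoxA* cluster. The wt iBAT group held 5 libraries from the fat pad between the shoulder blades at E18.5. The wt somite group held 4 libraries from trunk segments C3 to T2 at E12.5, after the neural tube, the forelimbs and the organs of the thorax had been dissected away. Embryos of both groups carried no targeted allele and came from lines on the 129/Sv background, and each library came from a separate embryo. The matching *Hoxa5*-/- groups held 5 iBAT and 4 somite libraries on the same background, from embryos whose *Hoxa5* homeobox, in exon 2, carries an inserted neomycin cassette. The somite samples were whole segments, so that neurons of ganglia, skin, vessels and blood could be present beside the somite derivatives. The paper holds it likely that some lateral plate progenitors of the forelimb girdle were left in them too. The iBAT samples were likewise whole fat pads. All these libraries were polyA-selected and were sequenced at 1 centre as paired-end reads. By the paper's statistics, every wt iBAT library had lower shares of mapped and assigned reads than any wt E12.5 somite library. Tissue and stage changed together, so that a difference between iBAT and somites cannot be told apart from a difference between E18.5 and E12.5. In such bulk samples, fewer cells of a type and less RNA per cell cannot be told apart either.

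Somites are blocks of paraxial mesoderm beside the neural tube. Their ventral part, the sclerotome, forms cartilage and bone of the vertebrae and ribs, and their dorsal part, the dermomyotome, forms skeletal muscle, dorsal dermis and the brown fat between the shoulder blades. Brown adipocytes burn fatty acids in densely packed mitochondria, where the uncoupling protein UCP1 lets protons bypass ATP synthase and releases heat. They are born before the newborn has to keep warm, and the stores of lipid, the respiratory chain and *Ucp1* are built up late in gestation.

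The library totals lay between 18369905 and 21282501 counts in wt iBAT and between 26553963 and 28234711 in wt somites. Genes of the mitochondrial genome took 10.3% to 12.9% of the counts in iBAT and 1.45% to 1.71% in somites, and from 14524 to 15482 genes reached 1 TPM in single iBAT libraries against 18233 to 18683 in somites. Fold changes were fitted with TMM scaling (trimmed mean of M-values), which aligns the bulk of the genes, and the TMM factors were 0.785 to 0.877 in iBAT and 1.26 to 1.33 in somites. TPM instead gives every library the same sum, of which mitochondrial transcripts held 21.9% to 26.3% in iBAT. For members at 10 TPM or more in both tissues, the difference in log2(TPM + 1) minus the fitted log2 fold change had a median of -1.19. A gene with the same TPM in both tissues therefore has a positive fitted fold change, and 1694 members called higher in iBAT had a lower mean TPM there, whereas 0 members called lower had a higher one. Fold changes given below are fitted ones, iBAT over somites on the log2 scale with their standard error (SE), unless the scale is named.

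A gene was called different at an adjusted p under 0.05 (quasi-likelihood F test of edgeR, Benjamini-Hochberg adjusted across all members) and a fold change of at least 1.5. By that rule 12841 members, 66.3%, differed between the tissues. Of these, 6002 (31.0% of the members) were higher in iBAT and 6839 (35.3%) were lower, while 6528 were not called. Scaling by library totals in place of TMM gave 4102 higher and 10160 lower genes, so that the share of calls that were higher moved from 46.7% to 28.8%. By TMM, by library totals and by at least 1.5-fold in mean TPM alike, 3071 members were higher and 6839 lower. Library totals and TPM both shift values down in iBAT against TMM (medians of -0.64 and -1.19). The lower count is therefore that of TMM itself and is no separate check. Differences of at least 4-fold numbered 2772 higher and 3224 lower, and of at least 32-fold 451 higher and 775 lower. For 14299 of the 19369 members, 12094 of them called, the TMM-scaled values of the groups did not overlap. Groups that lie apart in every library, as noted for single genes below, were thus the common outcome. The median fold change of all members was -0.16 with TMM and -0.80 with library totals.

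**Figure D1:**
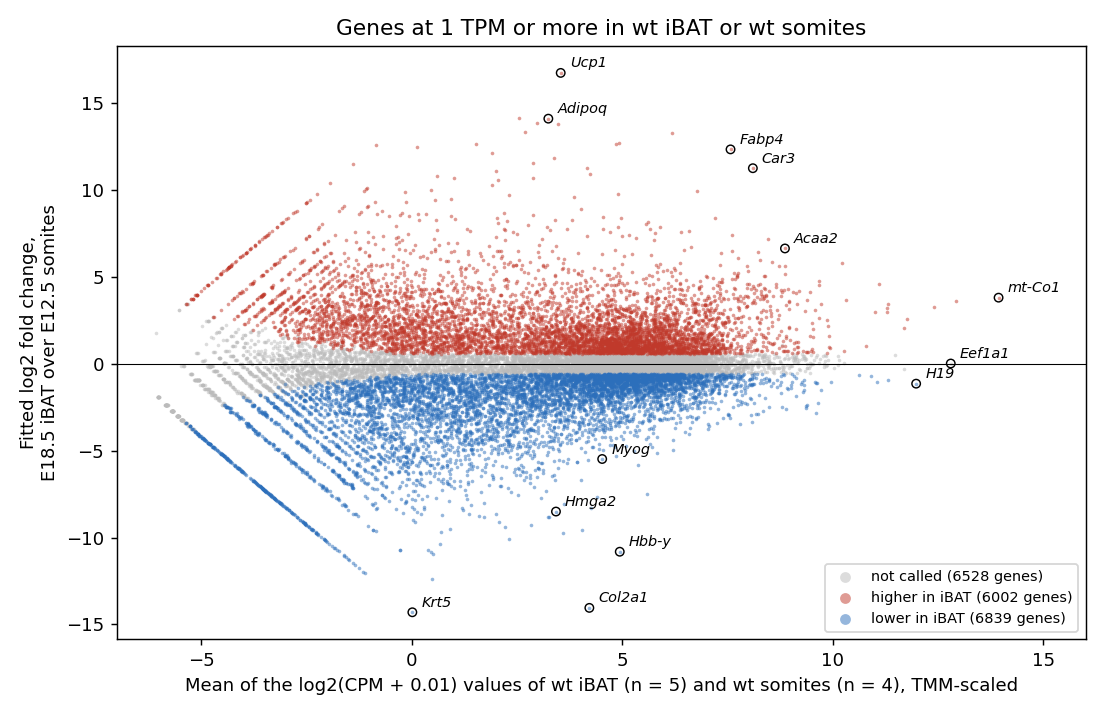
Each point is 1 of the 19369 members. The horizontal axis gives the mean of its log2(CPM + 0.01) values in wt iBAT (n = 5) and wt somites (n = 4), where CPM is the count scaled by TMM library size, and the vertical axis its fitted log2 fold change, iBAT over somites. Red points are called higher in iBAT (6002), blue points lower (6839) and grey points not called (6528). *Ucp1* lies highest at 16.73, *Krt5* and *Col2a1* lie near -14, and the straight lines of points on the left are genes with 0 or few counts in 1 tissue.

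Among members with a mean of at least 50 TPM in the higher tissue and groups that do not overlap, the largest rises were those of adipocyte genes. *Ucp1* led at 16.73 ± 0.63, followed by the lipid droplet gene *Cidec* (14.16), the hormone gene *Adipoq* (14.10), *Pck1* of glyceroneogenesis (13.87), the droplet coat gene *Plin1* (13.78), the complement protease adipsin, *Cfd* (13.31), *Gpd1* (13.28), *Cidea* (12.73), *Thrsp* (12.64), *Adig* (12.64) and *Fabp4* (12.33). *Gm44386* (12.45), a gene model with no assigned role, also stood among them and had 1 count in all somite libraries together, for a ratio of 9660 with a 95% counting interval of 1730 to 382000. The largest falls were those of cartilage, skin, nerve and blood genes. *Col2a1*, the main collagen of cartilage, fell by 14.05 on the log2 scale, and *Col9a1*, *Col9a3*, *Matn1* and the bone sialoprotein gene *Ibsp* were with it. *Krt5* of basal skin cells had no count in iBAT, so that it was at least 2740-fold lower there. *Krt15*, the neuronal gene *Nefm*, the Wnt inhibitor gene *Kremen2*, the embryonic globin gene *Hbb-y* and the inner ear gene *Oc90* were also among the largest falls.

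*Oc90* did not behave alike in the 4 somite libraries. It stood at 61.5, 61.6, 0.296 and 89.9 TPM in them and at 0 in every iBAT library. Replicate 3 was thus low, and the fold of at least 577 rests on the other 3 somite libraries.

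The most abundant transcripts differed between the tissues as well. In iBAT, 9 of the 10 highest were of the mitochondrial genome, led by *mt-Co1* at 78100 ± 4993 TPM (SD, n = 5), and the remaining one was *Car3*, a carbonic anhydrase of adipocytes and muscle, at 9786 ± 582 TPM against 9.29 ± 0.64 TPM in somites (SD, n = 4). In somites the translation factor gene *Eef1a1* was highest at 13660 ± 267 TPM, with the imprinted RNA *H19* at 10970 ± 1211 TPM and *Hbb-y* at 9865 ± 1827 TPM. *Eef1a1* had 5975 ± 708 TPM in iBAT and a fitted fold change of 0.01 ± 0.09, which was not called and became -0.63 with library totals.

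**Figure D2:**
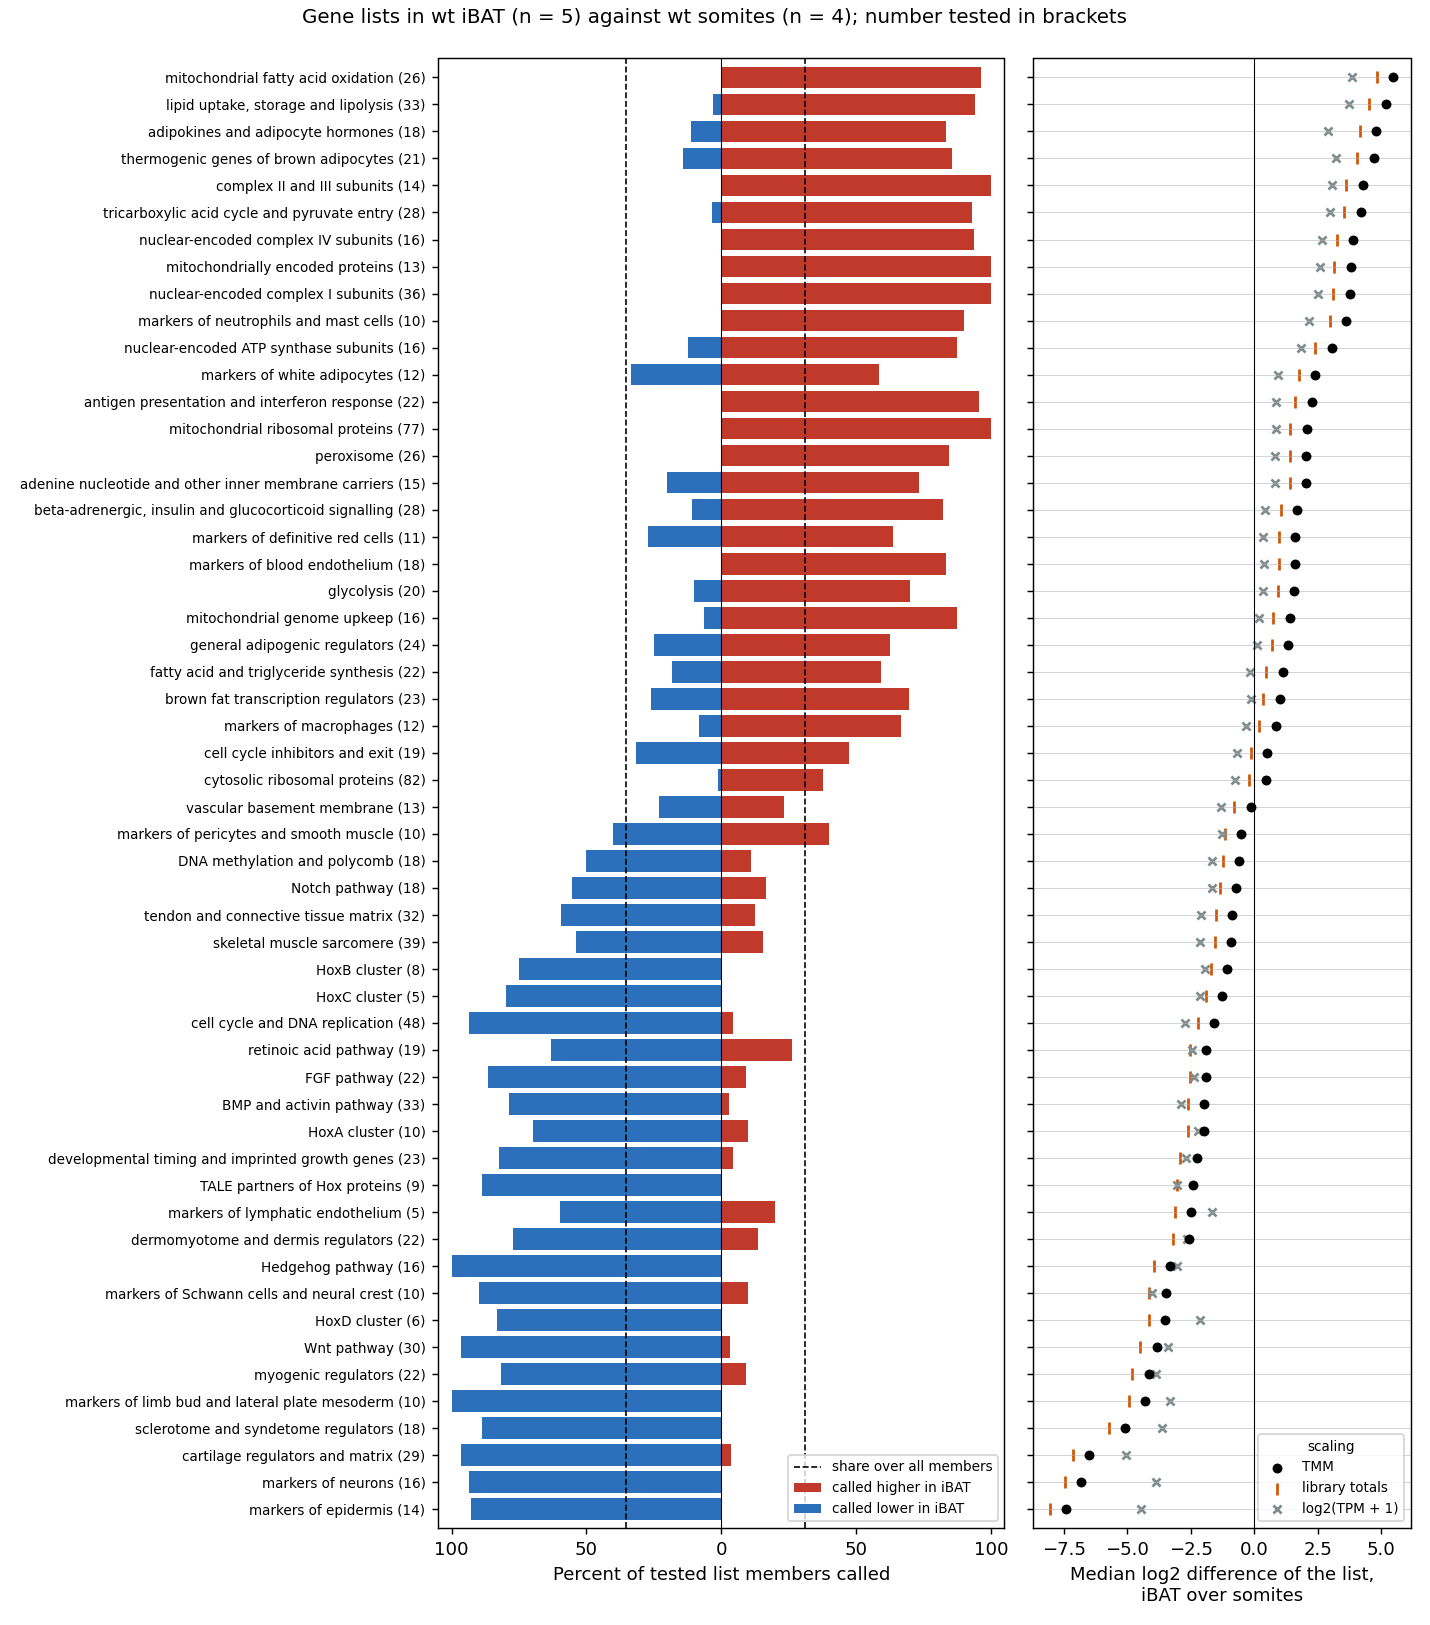
Gene lists with at least 5 tested members, ordered by median fold change, with the number tested in brackets. The left panel gives the percent of tested members called higher (red, to the right) or lower (blue, to the left) in wt iBAT (n = 5) than in wt somites (n = 4), and dashed lines mark the shares over all members, 31.0% and 35.3%. The right panel gives the list's median log2 difference with TMM scaling (dots), library totals (bars) and log2(TPM + 1) (crosses). Fatty acid oxidation, lipid storage and respiration stand at the top, and epidermis, neurons and cartilage at the bottom.

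Stretches of 200 bases just upstream of the annotated start of 5 genes are shown because they come from gene groups that differed together and were picked for holding the short motifs counted below. They were read from the GRCm39 genome, lie outside annotated exons and are written 5′ to 3′ on the strand of the gene. Capitals mark only the motif that each was picked for. Other motifs counted below stay in lower case, such as AGGTCA in *Mcm2* and CCAAT on the opposite strand (ATTGG) in *Myod1*.
Ucp1 (chr8:84016781-84016980, plus strand): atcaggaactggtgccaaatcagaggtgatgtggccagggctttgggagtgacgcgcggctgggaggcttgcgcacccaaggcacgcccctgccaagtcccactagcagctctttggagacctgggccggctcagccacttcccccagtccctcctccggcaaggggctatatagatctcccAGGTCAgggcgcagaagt
Cox7b (chrX:105059106-105059305, plus strand): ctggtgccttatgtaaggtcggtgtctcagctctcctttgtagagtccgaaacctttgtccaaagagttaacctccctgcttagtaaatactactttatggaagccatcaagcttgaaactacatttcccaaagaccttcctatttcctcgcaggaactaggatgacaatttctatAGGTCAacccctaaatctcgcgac
Myod1 (chr7:46025698-46025897, plus strand): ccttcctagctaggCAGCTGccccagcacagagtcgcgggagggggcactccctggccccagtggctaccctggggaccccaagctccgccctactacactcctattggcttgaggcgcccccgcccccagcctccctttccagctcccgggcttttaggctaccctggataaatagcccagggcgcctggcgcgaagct
Tnnt2 (chr1:135763892-135764091, plus strand): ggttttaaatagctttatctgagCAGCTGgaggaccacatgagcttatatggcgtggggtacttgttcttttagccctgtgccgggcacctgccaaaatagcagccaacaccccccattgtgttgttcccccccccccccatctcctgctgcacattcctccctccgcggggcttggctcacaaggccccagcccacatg
Mcm2 (chr6:88875763-88875962, minus strand): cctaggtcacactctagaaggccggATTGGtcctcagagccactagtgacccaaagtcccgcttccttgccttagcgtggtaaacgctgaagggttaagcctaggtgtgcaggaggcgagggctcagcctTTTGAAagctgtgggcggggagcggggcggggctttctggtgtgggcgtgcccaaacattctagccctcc

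Motifs were searched on both strands from 250 bases before to 50 bases after the start of 21808 protein-coding genes. AGGTCA, a hexamer that many nuclear receptors bind, was in 14.2% of all these windows. It was in 35.7% of those of the tricarboxylic acid cycle list (10 of 28), in 27.8% of complex I (10 of 36) and in 26.9% of fatty acid oxidation (7 of 26), but in 9.09% of lipid uptake, storage and lipolysis, 4.35% of the brown fat regulators and 3.57% of beta-adrenergic, insulin and glucocorticoid signalling. The thermogenic list held it in 18.2% (4 of 22), near the share of all windows. The nuclear-encoded respiratory chain and ATP synthase list held it in 24.4% (20 of 82). In *Ucp1* and *Cox7b*, printed from these lists, AGGTCA lies on the strand of the gene and begins 18 and 24 bases before the start. CAGCTG, an E-box of the kind bound by myogenic factors, was in 15.4% of all windows, in 42.5% of the sarcomere list (17 of 40) and in 40.9% of the myogenic regulators (9 of 22). CCAAT was in 38.9% of all windows and in 72.9% of the cell cycle list (35 of 48), and TTTGAA in 15.7% and 31.2% (15 of 48). Other lists held CCAAT at similar shares, with 80.0% in *HoxA* (8 of 10), 70.0% in *HoxB* (7 of 10) and 68.4% in the sclerotome regulators (13 of 19). For TTTGAA they included *HoxD* at 37.5% (3 of 8), *HoxC* at 33.3% (3 of 9) and the retinoic acid list at 31.6% (6 of 19). GCGCATGCG was in 2.50% of all windows and in 9.76% of those of the nuclear-encoded respiratory chain and ATP synthase (8 of 82). A match of letters is not a bound site, and no test was made of these shares.

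The thermogenic genes of brown adipocytes were largely called higher in iBAT. Of 21 tested, 18 were higher, against 31.0% of all members, and 3 were lower, with a median fold change of 4.69. *Ucp1* (chromosome 8, 84016981 to 84025081) stood at 3001, 6969, 4894, 5290 and 2320 TPM in the iBAT libraries and at 0.243, 0, 0 and 0.0835 TPM in the somite libraries, where 4 counts were found in all. Its iBAT levels spread about a mean of 4495 ± 1862 TPM, lowest in replicates 5 and 1 and highest in replicate 2, and stayed far from those of somites (16.73 ± 0.63, adjusted p = 2.18e-12). *Cidea*, which helps lipid droplets fuse, stood at 3897, 4592, 5239, 5357 and 3740 TPM against 1.19, 1.91, 1.65 and 1.47 TPM, a fold change of 12.73 ± 0.26. *Slc36a2*, an amino acid transporter of brown adipocytes, rose by 11.28 and the droplet protein gene *Plin5* by 10.66. The 3 members called lower were *Ckmt1*, a mitochondrial creatine kinase (-2.83), the muscle calcium pump gene *Atp2a1* (-1.38) and *Fabp3* (-0.65), a fatty acid binding protein of muscle.

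Regulators of brown fat identity moved less than its effector genes. Of 23 tested, 16 were higher and 6 lower, with a median of 1.0, which was 0.36 with library totals and -0.13 on log2(TPM + 1). The coactivator gene *Ppargc1a* stood at 30.3, 29.98, 23.5, 29.0 and 27.3 TPM in iBAT and 2.37, 2.44, 2.47 and 2.82 TPM in somites. The groups did not overlap, and the fold change was 4.68 ± 0.11 (adjusted p = 2.10e-14). *Ppara*, the nuclear receptor of fatty acid oxidation, stood at 116, 157, 198, 235 and 204 TPM against 1.38, 1.80, 2.73 and 2.03 TPM (7.73 ± 0.26), and *Esrra*, a receptor that drives mitochondrial genes, at 142, 137, 127, 161 and 158 TPM against 15.98, 19.2, 15.8 and 13.7 TPM (4.37 ± 0.11). Both were higher in each iBAT library than in any somite library. By contrast, the early determinants *Prdm16* and *Ebf2* were also found in the whole somite segments, where the cells that held them were not identified. *Prdm16* stood at 7.72, 5.97, 7.75, 9.93 and 11.96 TPM in iBAT and at 10.7, 9.90, 13.5 and 14.6 TPM in somites, so that the groups overlapped, and its call as higher (0.71 ± 0.16, adjusted p = 0.000775) was lost with library totals (0.07) and had the opposite sign on log2(TPM + 1), -0.46. *Ebf2*, another early determinant, stood at 59.1, 44.0, 50.2, 75.4 and 93.4 TPM against 53.9, 57.3, 61.4 and 61.1 TPM; the levels overlapped while the fitted value was 1.33 ± 0.15 (adjusted p = 9.02e-07). Like *Prdm16*, *Ebf1*, *Nfia*, *Lhx8* and *Thra* were called higher with a lower mean TPM in iBAT. The 6 called lower were *Ebf3*, *Zfp516*, *Zic1*, *Esrrb*, *Ehmt1* and *Tbx15*. *Zic1* stood at 5.04, 4.34, 4.87, 3.90 and 4.73 TPM against 52.4, 53.0, 72.5 and 67.8 TPM (-2.54 ± 0.12), and all iBAT libraries were below all somite libraries.

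**Figure D3:**
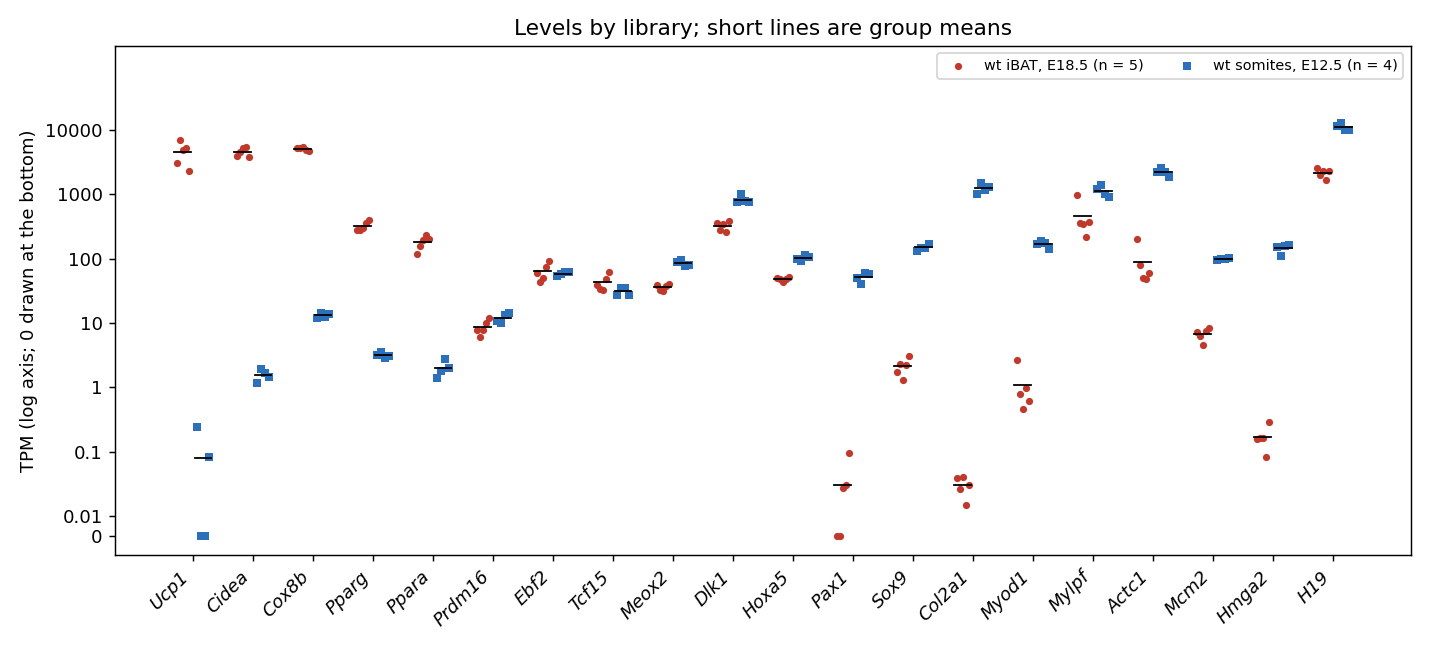
TPM on a log axis for 20 genes in each wt iBAT library (red circles, n = 5) and each wt somite library (blue squares, n = 4), with the group means as short lines and values of 0 drawn at the bottom. *Ucp1*, *Cidea*, *Cox8b*, *Pparg* and *Ppara* are higher in every iBAT library, the levels of *Prdm16*, *Ebf2*, *Tcf15* and *Mylpf* overlap, and *Pax1*, *Sox9*, *Col2a1*, *Myod1*, *Mcm2*, *Hmga2* and *H19* are lower in every iBAT library. For *Myod1*, *Mylpf* and *Actc1*, iBAT replicate 1 stands above the other 4.

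Regulators common to brown and white adipocytes gave 15 higher and 6 lower of 24 tested, with a median of 1.34 (0.12 on log2(TPM + 1)). *Pparg*, the master regulator of adipogenesis, stood at 282, 279, 303, 357 and 396 TPM in iBAT and 3.14, 3.60, 2.83 and 3.10 TPM in somites (7.88 ± 0.14). *Cebpa*, its partner, stood at 745, 698, 758, 840 and 964 TPM against 16.02, 20.6, 16.2 and 17.3 TPM (6.72 ± 0.13). Both separated the tissues in every library, as most members did on the TMM scale. *Dlk1*, a marker of preadipocytes, stood at 357, 278, 340, 255.7 and 381 TPM against 747, 990, 797 and 752 TPM; its fitted fold change of -0.15 ± 0.11 was not called, whereas library totals gave -0.79 and a call. *Gata3* (-6.01), *Klf5* (-3.48), *Wnt10b* (-1.65), *Zfp423* (-1.45), *Nr2f2* (-1.23) and *Klf4* (-0.91) were called lower.

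Genes of lipid uptake, storage and lipolysis were higher for 31 of 33 members, with a median of 5.18. *Fabp4*, the fatty acid binding protein of adipocytes, stood at 6338, 6551, 6748, 6268 and 5385 TPM in iBAT and 2.60, 3.13, 2.68 and 2.86 TPM in somites (12.33 ± 0.20). *Gpd1*, which makes the glycerol backbone of triglycerides, stood at 3937, 5390, 4869, 5936 and 4865 TPM against 0.849, 1.30, 1.58 and 0.922 TPM (13.28 ± 0.27). The groups lay far apart for both genes. The lipase genes *Pnpla2* (8.36), *Lipe* (7.66) and *Mgll* (4.84) and the lipase inhibitor gene *G0s2* (7.60) rose together with *Lpl* (7.19) and *Cd36* (7.39), which serve uptake. *Fitm1*, a droplet protein of muscle, was the member called lower (-1.92), and the fatty acid transporter gene *Slc27a4* was not called (0.20 ± 0.07).

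Fatty acid synthesis was less uniform, with 13 higher, 4 lower and 5 not called of 22 and a median of 1.11 (0.44 with library totals, -0.18 on log2(TPM + 1)). *Thrsp*, a lipogenic gene induced by thyroid hormone, stood at 1797, 2378, 2271, 2555 and 1732 TPM against 1.15, 0.607, 0.582 and 0.749 TPM (12.64 ± 0.27). *Fasn*, fatty acid synthase itself, stood at 61.3, 120, 154, 191 and 87.0 TPM in iBAT and 135, 139, 153 and 148 TPM in somites. The iBAT libraries spread on both sides of the somite values, and the call as higher (1.002 ± 0.27, adjusted p = 0.00281) was lost with library totals (0.33) and turned on log2(TPM + 1), -0.34. The desaturase genes *Fads2* (-1.50) and *Fads1* (-0.88) and the sterol synthesis gene *Sqle* (-1.42) were among the 4 called lower.

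Adipokines and adipocyte hormones were higher for 15 and lower for 2 of 18, with a median of 4.80. *Adipoq*, which codes for adiponectin, stood at 1862, 1821, 1798, 1746 and 1808 TPM in iBAT and 0.192, 0.0961, 0.410 and 0.198 TPM in somites. Its iBAT libraries agreed within an SD of 41.7 TPM about a mean of 1807 TPM (14.10 ± 0.18, adjusted p = 2.79e-16). Leptin, *Lep*, was at 7.21 TPM (9.29) and resistin, *Retn*, at 77.8 TPM (10.80). *Igf1* (-1.31) and *Serpina3n* (-1.93) were lower. Of the signalling genes for adrenergic, insulin and glucocorticoid input, 23 were higher and 3 lower of 28. *Prkar2b*, a regulatory subunit of protein kinase A, stood at 966, 976, 985, 1041 and 987 TPM against 47.9, 45.7, 48.0 and 47.7 TPM (5.6 ± 0.10). *Adrb3*, the adrenergic receptor of adipocytes, stood lower, at 7.93, 10.2, 10.9, 14.7 and 16.6 TPM against 1.14, 0.787, 0.838 and 0.971 TPM (4.88 ± 0.23). The glucose transporter genes went apart, with *Slc2a4* up by 3.81 and *Slc2a1* at -1.93.

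In fatty acid oxidation 25 of 26 members were higher and 0 lower, with a median of 5.47. *Acaa2*, the last thiolase of the cycle, stood at 6160, 6624, 6479, 6718 and 5535 TPM in iBAT and 155, 144, 148 and 145 TPM in somites (6.63 ± 0.14). The member not called was *Cpt1a*, the liver form of the entry enzyme (-0.22 ± 0.11), while the muscle and brown fat form *Cpt1b* rose by 5.90. In the tricarboxylic acid cycle and pyruvate entry 26 of 28 were higher, with a median of 4.18. *Got2* was called lower (-1.002) and *Got1* was not called (-0.52 ± 0.11), both aspartate aminotransferases of the malate shuttle. *Pdk4*, which switches pyruvate dehydrogenase off, rose by 8.39. Of 15 inner membrane carrier genes 11 were higher, and the 3 called lower were *Slc25a12* and *Slc25a13*, the aspartate and glutamate carriers, and *Slc25a25*.

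All the listed nuclear-encoded subunits of complex I (36 of 36) and all those of complexes II and III (14 of 14) were called higher, with medians of 3.75 and 4.27, and these counts were the same with library totals. In complex I, *Ndufc2* stood at 2289, 2242, 2142, 2145 and 2115 TPM against 309, 323, 317 and 321 TPM (3.995 ± 0.09). In complex IV 15 of 16 were higher, with a median of 3.89. *Cox7b* stood at 2349, 2210, 2292, 2002 and 1824 TPM against 200, 210, 206 and 210 TPM (4.58 ± 0.12). ATP synthase rose less, with 14 higher and 2 lower of 16 and a median of 3.04. *Atp5b*, its catalytic subunit, stood at 3997, 3912, 4106, 4394 and 3967 TPM against 849, 861, 878 and 874 TPM (3.45 ± 0.11). The 2 members lower were *Atp5g1* (-0.78), a c-ring gene, and *Atpif1* (-0.85), the inhibitor of ATP hydrolysis.

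Tissue isoforms of the same subunit shifted against each other. *Cox7a1*, the heart and muscle form, stood at 3458, 3211, 3352, 3130 and 2561 TPM in iBAT and 2.47, 5.21, 2.91 and 4.59 TPM in somites (10.89 ± 0.22), while the common form *Cox7a2* stood at 1483, 1418, 1447, 1265 and 1197 TPM against 257, 247, 237 and 220 TPM (3.72 ± 0.11). In TPM, *Cox7a1* made up 69.7% ± 1.1 (SD, n = 5) of the pair in iBAT and 1.57% ± 0.57 (SD, n = 4) in somites. *Cox8b* stood at 5200, 5133, 5389, 4865 and 4624 TPM against 12.1, 14.4, 12.6 and 13.7 TPM (9.79 ± 0.15), and its share of *Cox8b* and *Cox8a* was 50.5% ± 1.7 in iBAT and 1.69% ± 0.09 in somites. The other muscle forms did not follow. *Cox6a2* made up 0.387% ± 0.176 of *Cox6a2* and *Cox6a1* in iBAT and 4.28% ± 1.52 in somites and was not called (0.36 ± 0.30). The lung form *Cox4i2* made up 0.438% ± 0.012 and 1.74% ± 0.32 of its pair with *Cox4i1*. For the ADP/ATP carriers, *Slc25a4* stood at 732, 733, 643, 781 and 685 TPM in iBAT and 625, 626, 665 and 644 TPM in somites, and *Slc25a5* at 1362, 1408, 1324, 1588 and 1368 TPM against 468, 470, 462 and 461 TPM. The share of *Slc25a4* in this pair was 33.6% ± 0.93 in iBAT and 57.9% ± 0.91 in somites, and no library of one tissue reached the other's range.

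All 13 proteins of the mitochondrial genome were called higher, with a median of 3.80. *mt-Co1* (chromosome M, 5328 to 6872) stood at 73080, 81430, 85110, 75170 and 75700 TPM in iBAT and 12350, 12270, 13770 and 13650 TPM in somites (3.80 ± 0.14). The genes fell into 2 sets by level. *mt-Co2*, *mt-Atp8*, *mt-Atp6*, *mt-Co3*, *mt-Nd3* and *mt-Nd4l* had fold changes of 7.14 to 8.17 and means of only 3.78 to 24.2 TPM in somites, while the other 7 proteins and both ribosomal RNAs had fold changes of 2.50 to 4.56. *mt-Co2* stood at 2064, 2358, 2261, 2293 and 2109 TPM against 24, 21.9, 24 and 26.9 TPM. These 6 genes share their sequence with the nuclear genome: from 99.1% to 100% of their 31-base words also occur there, against 0% to 63.9% for the other 9. A stretch of 4650 bases on chromosome 1, 24650616 to 24655265 in GRCm39, holds that copy, and 7 pseudogene members that lie in or across it (*Gm28439*, *Gm10222*, *Gm28438*, *Gm28437*, *Gm10925*, *Gm28661* and *Gm29216*) had fold changes of 4.06 to 7.89. Reads that fit both places cannot be assigned to one, so that the levels of these 6 genes and 7 pseudogenes are uncertain, and the part of the shared sequence in their fold changes was not tested. Levels of *mt-Co1* and *mt-Nd4*, with 63.9% and 63.0% of such words, are uncertain in part as well. Without counting the mitochondrial genome and this copy, 5964 members were higher and 6839 lower.

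**Figure D4:**
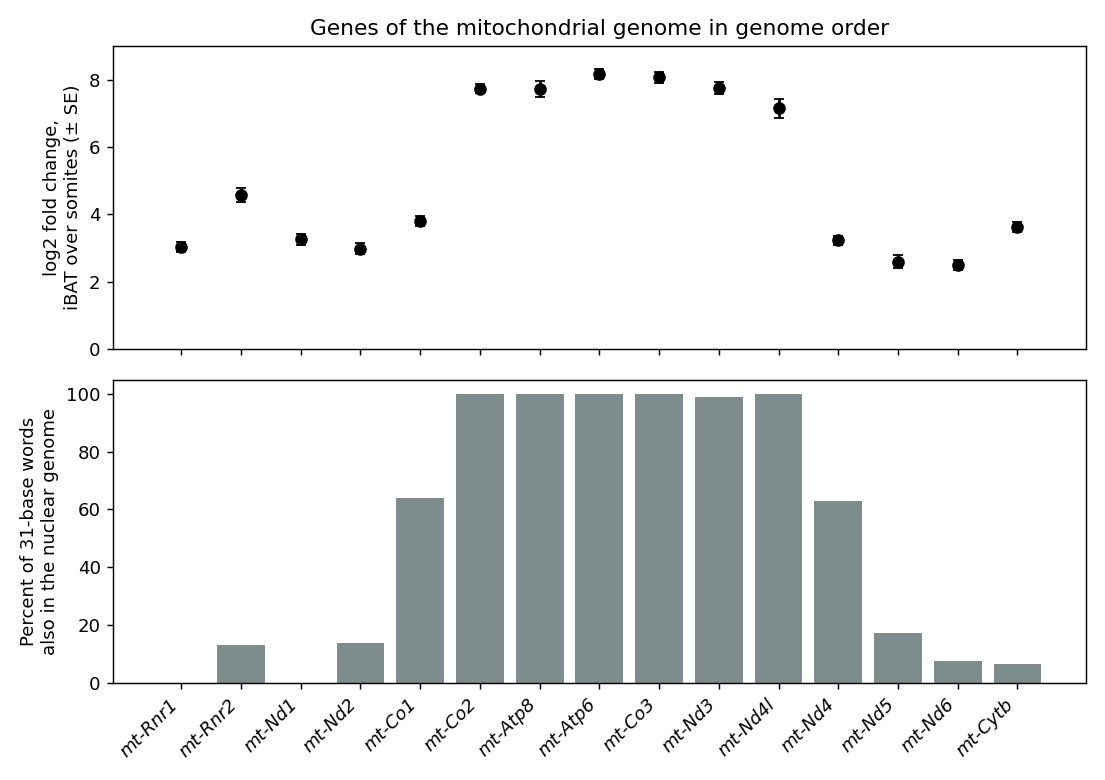
Genes of the mitochondrial genome in genome order. The upper panel gives the fitted log2 fold change, wt iBAT (n = 5) over wt somites (n = 4), with SE bars, and the lower panel the percent of each gene's 31-base words that also occur in the nuclear genome. The 6 genes from *mt-Co2* to *mt-Nd4l* have the highest fold changes, 7.14 to 8.17, and shares of 99.1% to 100%.

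Mitochondrial ribosomal proteins were higher for 77 of 77 members with a median of 2.07, and for 73 with library totals. Cytosolic ribosomal proteins had 31 higher and 1 lower of 82 and a median of 0.46, which turned to -0.19 with library totals (5 higher, 16 lower) and -0.76 on log2(TPM + 1). *Rplp1* stood at 6543, 4953, 4785, 4984 and 6622 TPM in iBAT against 6698, 7146, 6397 and 6350 TPM in somites; its call as higher (0.95 ± 0.09) was lost with library totals (0.30) and reversed on log2(TPM + 1), -0.27. A list of mitochondrial upkeep genes, not only those for mitochondrial DNA, rose modestly, 14 of 16 with a median of 1.39 (0.17 on log2(TPM + 1)). Its members with the highest levels were *Immt* (3.32), *Mfn2* (2.64), *Lonp1* (1.65) and *Opa1* (2.39). Of those called higher, 3 had a lower mean TPM in iBAT. *Tfam*, which packs mitochondrial DNA, had 49.3 against 47.8 TPM (1.26), and *Nrf1* was lower (-0.78). Peroxisome genes were higher for 22 and lower for 0 of 26, with a median of 2.05 and catalase, *Cat*, at 758 against 122 TPM (3.85). In glycolysis 14 were higher and 2 lower of 20, with the hexokinases apart, *Hk2* at 3.41 and *Hk1* at -1.42, and the lactate exporter gene *Slc16a3* at -1.64.

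Regulators of the sclerotome and of tendon progenitors were lower in iBAT for 16 of 18 members, against 35.3% of all members, with a median of -5.08 (-4.94 with genes at 0 in iBAT set to their bound). *Pax1*, which patterns vertebrae, stood at 0, 0, 0.0277, 0.0309 and 0.0947 TPM in iBAT and 50.7, 39.7, 59.95 and 56.9 TPM in somites (-9.50 ± 0.28). *Nkx3-2* had no count in iBAT and was at least 225-fold lower. *Egr1* (0.06 ± 0.12) and *Meox2* were not called. *Meox2* stood at 38.9, 32.8, 30.9, 38.1 and 40.5 TPM against 88.1, 96.3, 76.0 and 80.0 TPM, with a fitted value of -0.03 ± 0.08 that became -0.67 and a call with library totals. Regulators of the dermomyotome and dermis, the part of the somite that gives rise to brown fat, were lower for 17 and higher for 3 of 22. *Pax3* had no count in iBAT (at least 54.7-fold lower), and *Pax7* (-6.19), *En1* (-2.15) and *Pdgfra* (-3.11) were lower. The 3 called higher were *Tcf15*, *Ebf2* and *Met*. *Tcf15*, a helix-loop-helix factor of early paraxial mesoderm, stood at 38.5, 33.3, 33.1, 49.0 and 61.6 TPM in iBAT and 27.4, 34.5, 35.2 and 27.4 TPM in somites (1.66 ± 0.16, adjusted p = 1.73e-07), with overlapping TPM. In wt somites at E10.5, given for level only, *Tcf15* was at 84.3 TPM, *Pax3* at 37.7 TPM and *Meox2* at 61.1 TPM.

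Myogenic regulators were largely lower in iBAT, and sarcomere genes were divided. Of 22 myogenic regulators, 18 were lower and 2 higher, with a median of -4.15. *Myod1*, whose upstream stretch holds a CAGCTG, stood at 2.698, 0.788, 0.468, 0.971 and 0.610 TPM in iBAT and 168, 191, 176 and 140 TPM in somites (-6.01 ± 0.26). *Myog* stood at 10.9, 4.91, 2.16, 2.42 and 3.42 TPM against 511, 562, 478 and 445 TPM (-5.48 ± 0.28). The members called higher were *Itga7* (1.39), an integrin, and *Myf6* (1.02), whose mean TPM of 3.41 in iBAT was below the 3.89 of somites.

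For the sarcomere 21 of 39 were lower, 6 higher and 12 not called, with a median of -0.90. *Actc1*, cardiac actin, stood at 199, 78.5, 50.1, 49.0 and 60.8 TPM in iBAT and 2187, 2513, 2229 and 1858 TPM in somites (-3.45 ± 0.33), and *Tnnt2*, cardiac troponin T, at 3.48, 1.56, 0.962, 1.25 and 1.52 TPM against 81.6, 99.5, 71.0 and 62.6 TPM (-4.27 ± 0.25). *Mylpf*, the fast light chain, stood at 970, 357, 346, 213 and 374 TPM against 1188, 1393, 999 and 916 TPM and was not called (-0.12 ± 0.30, adjusted p = 0.717), but became -0.76 and a call with library totals. The 6 called higher were *Mybpc2* (5.01), *Ckm* (3.58), *Pvalb* (3.15), *Myoz1* (2.76), *Tnni2* (1.83) and *Tnnt3* (1.05), the last with a lower mean TPM in iBAT. The summed TPM of the 40 sarcomere genes was 3921 in iBAT replicate 1 and 1009 to 1593 in the other 4, against 7519 to 10690 in somites. Without replicate 1 the list gave 6 higher and 23 lower. The part of muscle carried along in dissection of the fat pad was not tested.

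Cartilage gave the largest fall of the structural groups, with 28 of 29 lower, 1 higher and a median of -6.50. *Col2a1* stood at 0.0388, 0.0265, 0.0403, 0.0150 and 0.0307 TPM in iBAT and 1006, 1472, 1175 and 1309 TPM in somites (-14.05 ± 0.21), with 11 counts in the 5 iBAT libraries together. *Sox9*, the chondrocyte determinant, stood at 1.76, 2.31, 1.29, 2.22 and 3.05 TPM against 134, 145, 147 and 171 TPM (-4.94 ± 0.15). *Sox6* was the member called higher (1.04), with 14.6 TPM in iBAT below the 16.5 TPM of somites. The matrix of tendon and connective tissue was lower for 19 and higher for 4 of 32, with a median of -0.86. *Col1a1* stood at 613, 533, 681, 427 and 649 TPM against 2147, 2803, 2582 and 2747 TPM (-0.94 ± 0.13). *Dpt* went the other way, at 121, 99.2, 143, 79.1 and 126 TPM against 18.4, 32.3, 15.8 and 15.8 TPM (3.67 ± 0.22), with *Mfap5* (3.01), *Dcn* (0.92) and *Sparc* (0.73), of which *Dcn* and *Sparc* had a lower mean TPM in iBAT. Vascular basement membrane genes were divided, with 3 higher and 3 lower of 13.

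Genes of the cell cycle and DNA replication were lower for 45 of 48 members, with a median of -1.59. *Mcm2*, a subunit of the replicative helicase, stood at 7.39, 6.33, 4.63, 7.43 and 8.26 TPM in iBAT and 96.3, 97.8, 98.2 and 102 TPM in somites (-2.66 ± 0.11). *Mki67*, a marker of dividing cells, stood at 42.0, 35.5, 24.9, 33.5 and 45.01 TPM against 194, 168, 197 and 208 TPM (-1.21 ± 0.11). The summed level of the list was 538 to 820 TPM in iBAT, 4056 to 4298 TPM in somites at E12.5 and 7160 to 7921 TPM in wt somites at E10.5. Members against this direction were *Gmnn*, the inhibitor of replication licensing, at 117, 98.3, 90.3, 110.5 and 103.6 TPM against 69.3, 68.8, 62.6 and 61.8 TPM (1.87 ± 0.08), and *E2f2* (1.10), whose mean TPM was lower in iBAT; *Cenpa* was not called (-0.21 ± 0.08). The list of cell cycle inhibitors and exit had 9 higher and 6 lower of 19 and a median of 0.50. That median turned to -0.15 with library totals and -0.70 on log2(TPM + 1). The list also holds the cyclin genes *Ccnd2* (-3.14), *Ccnd1* (-1.34) and *Ccng1* (2.82), so that its counts are not of inhibitors alone. *Cdkn1c*, an imprinted inhibitor, stood at 231, 161, 225, 158 and 191 TPM against 2609, 2903, 2276 and 2128 TPM (-2.47 ± 0.13), whereas *Cdkn2c* rose by 2.90.

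Genes of developmental timing and imprinted growth genes were lower for 19 and higher for 1 of 23, with a median of -2.27. *Hmga2*, a chromatin protein of early embryos that let-7 represses, stood at 0.159, 0.162, 0.165, 0.0821 and 0.293 TPM in iBAT and 150, 110, 159 and 162 TPM in somites (-8.51 ± 0.18). *Lin28b* (-4.06), *Igf2bp1* (-4.39), *Igf2bp2* (-3.25) and *Igf2bp3* (-2.53) fell with it. *Igf2*, the fetal growth factor, stood at 24.7, 19.3, 26.8, 20.1 and 29.1 TPM against 333, 402, 494 and 460 TPM (-2.94 ± 0.13). *H19*, which lies beside it and is imprinted the other way, stood at 2570, 1962, 2273, 1654 and 2271 TPM against 11360, 12510, 9971 and 10040 TPM (-1.15 ± 0.12). Both were lower in every iBAT library. *Gnas*, which couples receptors to cyclic AMP, was the one member higher (1.93). Of DNA methylation and polycomb genes, 9 were lower, 2 higher and 7 not called of 18, led by *Cbx2* (-3.35).

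*Hox* genes were lower in iBAT or not called, with 1 exception. Of 29 *Hox* genes tested, the *HoxA* cluster had 7 lower and 1 higher of 10, *HoxB* 6 lower of 8, *HoxC* 4 lower of 5 and *HoxD* 5 lower of 6. *Hoxa4* was called higher, at 29.2, 31.5, 23.6, 29.0 and 25.4 TPM in iBAT and 17.1, 17.99, 22.5 and 21.8 TPM in somites (1.70 ± 0.14, adjusted p = 1.39e-08). *Hoxa5* beside it stood at 49.5, 47.6, 44.1, 49.0 and 51.5 TPM against 98.4, 92.7, 112 and 107 TPM. Its TPM was lower in every iBAT library, but the TMM-scaled values overlapped and the fitted fold change was 0.12 ± 0.08 (adjusted p = 0.159) and -0.53 with library totals. *Hoxb4*, *Hoxb7*, *Hoxc6* and *Hoxd8* were not called either. The genes toward the 5′ end of the clusters, which mark more posterior levels, were among those with large falls. For *Hox9* genes in these segments, the paper proposes either low somite expression or a source in the forelimb field. The part of such forelimb progenitors in the falls was not tested. *Hoxa10* stood at 0.326, 0.143, 0, 0.0542 and 0 TPM against 12.9, 10.4, 10.98 and 10.1 TPM (-5.40 ± 0.40), and *Hoxa11* and *Hoxd10* had no count in iBAT, so that they were at least 17.8-fold and at least 24.7-fold lower. *Hoxd1*, at the other end of its cluster, also had no count in iBAT and 13.2, 9.34, 10.1 and 11.4 TPM in somites (at least 115-fold lower). Genes of the TALE cofactors, with which HOX proteins bind DNA, were lower for 8 of 9 with a median of -2.40. The member not called was *Pbx4* (-0.47 ± 0.30), and *Meis1* and *Meis2* had -2.99 and -2.97.

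**Figure D5:**
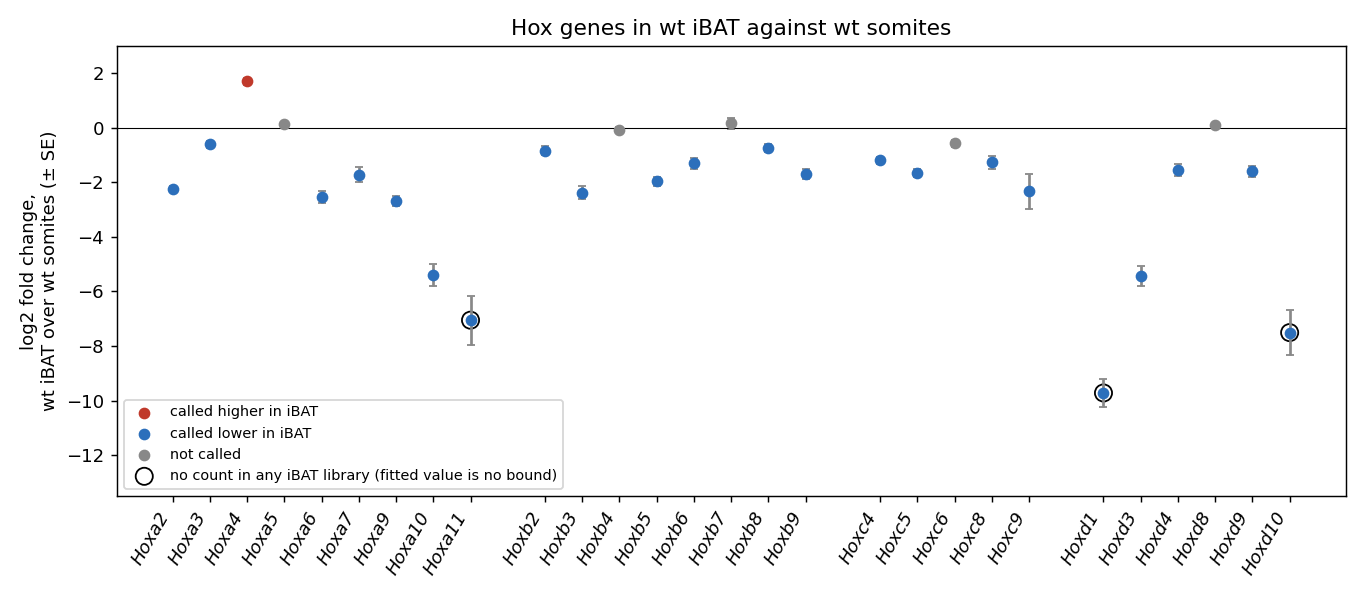
Fitted log2 fold changes with SE bars, wt iBAT (n = 5) over wt somites (n = 4), for 28 of the 29 *Hox* genes tested, in the order of the 4 clusters. Red marks a gene called higher in iBAT, blue lower and grey not called, and rings mark *Hoxa11*, *Hoxd1* and *Hoxd10*, which had no count in any iBAT library and whose fitted value is no bound. *Hoxa4* is the one red point, at 1.70.

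Embryonic signalling pathways were lower across most of their members. The Hedgehog list, which instructs sclerotome, was lower for 16 of 16 with a median of -3.32. Its transcriptional read-out *Gli1* stood at 1.10, 0.734, 0.896, 0.668 and 1.02 TPM in iBAT and 53.7, 51.9, 34.7 and 39.2 TPM in somites (-4.45 ± 0.16), and the co-receptor gene *Gas1* at 22.7, 14.6, 20.3, 17.9 and 24.5 TPM against 311, 317, 321 and 318 TPM (-2.79 ± 0.09). The Wnt list was lower for 29 of 30 with a median of -3.84. *Axin2*, a feedback target, stood at 3.17, 4.46, 4.02, 4.59 and 3.71 TPM against 32.2, 25.0, 33.8 and 35.7 TPM (-1.77 ± 0.14), and the secreted inhibitor gene *Sfrp2* at 11.3, 8.23, 11.7, 7.29 and 11.2 TPM against 524, 616, 546 and 546 TPM (-4.60 ± 0.12). The member higher was *Lgr6*, an R-spondin receptor, at 22.2, 13.0, 18.01, 16.5 and 24.2 TPM against 4.35, 4.30, 5.495 and 4.94 TPM (3.17 ± 0.14).

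In the BMP and activin list 26 of 33 were lower and 1 higher. The one higher was *Acvr1c*, the receptor ALK7 of adipocytes, at 40.4, 38.5, 39.3, 39.5 and 42.7 TPM against 0, 0.0572, 0.0305 and 0.0735 TPM (11.08 ± 0.18). In the FGF list 19 of 22 were lower and 2 higher, *Fgf16* (1.80) and *Klb*, the co-receptor of FGF21, at 33.1, 39.1, 42.4, 46.7 and 43.4 TPM against 0.175, 0.0876, 0.498 and 0.180 TPM (8.65 ± 0.24). *Fgfr4*, the receptor of muscle progenitors, stood at 0.877, 0.449, 0.175, 0.314 and 0.240 TPM against 69.6, 81.1, 58.2 and 50.5 TPM (-6.05 ± 0.25). The retinoic acid list had 12 lower and 5 higher of 19. *Aldh1a2*, the main synthetic enzyme of the trunk mesoderm, stood at 0.686, 0.756, 1.15, 0.798 and 0.626 TPM against 91.7, 64.6, 97.0 and 72.5 TPM (-5.44 ± 0.18), while *Rxrg* stood at 78.8, 77.8, 68.2, 80.1 and 81.0 TPM against 36.1, 33.9, 33.6 and 31.1 TPM (2.41 ± 0.07). Notch genes had 10 lower and 3 higher of 18, the latter being *Dll4* and *Notch4* of vessels and *Mfng*, whose mean TPM was lower in iBAT.

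Genes of antigen presentation and the interferon response were higher for 21 of 22 with a median of 2.26, and *Stat2* was not called (-0.40 ± 0.08). With library totals 17 were higher and 1 lower, and the median on log2(TPM + 1) was 0.87. Of those called higher, 4 had a lower mean TPM in iBAT, among them *B2m* at 228 against 245 TPM. *Ifi27* stood at 814, 937, 919, 897 and 789 TPM in iBAT and 36.8, 41.7, 37.3 and 28.9 TPM in somites (5.81 ± 0.15), and the class I heavy chain gene *H2-K1* rose by 3.64. Markers of other cells differed too. Neutrophil and mast cell markers were higher for 9 of 10 and summed to 302 to 510 TPM in iBAT against 30.2 to 38.9 TPM, with the mast cell protease gene *Cma1* at 159, 99.8, 134, 124 and 205 TPM against 2.43, 1.58, 1.43 and 2.004 TPM (7.45 ± 0.21). Macrophage markers summed to 254.7 to 368 TPM in iBAT and 281 to 342 TPM in somites, with 8 higher and 1 lower of 12 and a median of 0.84 that turned to -0.33 on log2(TPM + 1). Blood endothelium had 15 higher of 18, a list that includes *Fabp4* and *Cd36*, which adipocytes also express.

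Of 11 markers of definitive red cells tested, 7 were higher and 3 lower (*Slc4a1*, *Tspan33* and *Ermap*). The embryonic globin gene *Hbb-y* stood at 3.59, 1.35, 3.34, 2.19 and 1.12 TPM in iBAT and 7771, 9006, 10830 and 11860 TPM in somites (-10.82 ± 0.24), and *Hbb-bh1* and *Hba-x* fell by 8.28 and 8.80 on the log2 scale. The adult gene *Hbb-bs* stood at 6363, 7384, 10620, 7081 and 5632 TPM against 1351, 1827, 1585 and 1594 TPM (3.45 ± 0.20). Neighbouring and duplicated globin genes are alike in sequence, so that reads may be split among them.

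Markers of neurons, epidermis, Schwann cells and limb bud were largely lower in iBAT. Neuronal markers summed to 5.27 to 8.80 TPM in iBAT and 480 to 1192 TPM in somites, with 15 of 16 lower. *Tubb3* stood at 0.448, 0.327, 0.200, 0 and 0.0759 TPM in iBAT and 162, 126, 337 and 207 TPM in somites (-8.64 ± 0.41), and *Isl1* and *Neurod1* were at 0 in iBAT. Somite replicate 3 was the highest for *Tubb3*. Epidermal markers summed to 13.1 to 15.46 TPM against 716 to 781 TPM (13 of 14 lower), Schwann cell and neural crest markers to 22.2 to 26.1 TPM against 403 to 576 TPM (9 of 10 lower), and limb bud markers to 26.6 to 33.9 TPM against 355 to 410 TPM (10 of 10 lower). Their part in the genes called lower was not tested. Of the smaller lists, lymphatic endothelium had 1 higher and 3 lower of 5, pericytes and smooth muscle 4 and 4 of 10, neural progenitors 4 lower of 4, and white adipocyte markers 7 higher and 4 lower of 12. Leaving out the members on the lists of other cell types, 6769 were lower and 5950 higher. Only the listed markers leave that tally, so that it cannot gauge the part of those cells in other genes.

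Genes restricted to 1 tissue, at 10 TPM or more in each of its libraries and under 1 TPM in each library of the other, numbered 67 for iBAT, 46 of them protein-coding, and 384 for somites, 370 of them protein-coding. Relative to the fitted scale, TPM lies lower in iBAT, as given above. The limit of 10 TPM was thus harder to reach there, and staying under 1 TPM was easier. After those named above, the highest in iBAT included *Ces1d*, *Mrap*, *Plin4*, *C3* and *Aqp7*, and the brown fat lncRNA *Lncbate1* at 48.5 TPM was among them. In somites they included *Col9a2*, *Hbb-bh1*, *Cnmd*, *Col11a1* and *Matn4*. No count at all was found in iBAT for 395 members and in somites for 90. More members had entered through somites alone (4490) than through iBAT alone (1117), and the iBAT libraries had lower totals. Both favour zeros in iBAT, so that these counts are not a like comparison. By gene type, protein-coding members were higher for 4196 and lower for 5655 of 14468, and lncRNAs for 685 and 721 of 2130. Processed pseudogenes went apart from both, with 847 of 1317 (64.3%) higher and 130 lower and a median of 1.93, and reads of such copies may come from their parent genes. Protein-coding genes called lower had a median span of 29663 bases, against 18324.5 bases for those called higher.

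The same comparison in the *Hoxa5*-/- libraries, which the wt fit had not used, called 6205 members higher (32.0%) and 6563 lower (33.9%). Of the wt calls, 5793 higher (96.5% of the wt and 93.4% of the mutant list) and 6261 lower (91.6% and 95.4%) were shared, and 0 members were called in opposite directions. *Hoxa5* itself stood at 11.4, 12.8, 16.2, 10.6 and 9.84 TPM in mutant iBAT and 32.4, 29.2, 29.7 and 43.6 TPM in mutant somites, below every wt library of the same tissue. In the mutant libraries *Ucp1* had a fold change of 16.26, *Pparg* 7.91, *Col2a1* -13.91, *Myod1* -6.67 and *Mcm2* -2.46, and *Hoxa4* had 2.52. *Mylpf* was called lower there (-0.94, adjusted p = 0.00142). A test of whether the difference between tissues depended on genotype called 0 of 20001 genes (0%) with edgeR. An unadjusted p under 0.05 was found for 515, fewer than the 1 in 20 that chance would give. The count of 0 therefore does not show that no gene depended on genotype. DESeq2 called 2, *Hoxa9* (-1.75, adjusted p = 0.0324) and *Klk1b22* (2.56, adjusted p = 0.0487), where a negative value means a lower ratio of iBAT over somites in mutants. *Hoxa9* had means of 1.09 TPM in wt and 0.231 TPM in mutant iBAT, and 16.4 and 12.3 TPM in wt and mutant somites.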

How the data were processed

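The authors trimmed the reads with Trim Galore 0.6.5, mapped them to GRCm39 with STAR 2.7.9a and counted them per gene with featureCounts 2.0.3 on an annotation curated for *Hox* genes. The strand setting was not given in the sources used here, so that overlapping and antisense genes are uncertain. The deposited counts are raw whole numbers per gene. From those counts and the exon lengths the authors derived the deposited TPM values, and recomputing them gave the same values.

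Groups were taken from the labels. From the counts, the tissues were compared with edgeR 4.0.16 in R 4.3.3 (quasi-likelihood test, TMM scaling, Benjamini-Hochberg adjustment) on the 9 wt libraries. The SE of a log2 fold change was its size over the root of F. The same fit was made on the *Hoxa5*-/- libraries, and the interaction was fitted on all 18. DESeq2 1.42.0 was an alternative, as were other scalings, filters and fold limits, a replicate block and leaving out each library. A bound for a gene with no count in a tissue assumed 3 counts over the group. Counting intervals and bounds cover counting error only. The iBAT labels carry numbers shared by wt and mutant libraries, and wt iBAT replicates 4 and 5 share one, with no statement of what they mark.

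The members and the gene lists were chosen with earlier results of these data known. Values in every library were given for up to 4 members of a list (highest TPM, members against the list's direction, isoform pairs). Also named were the 12 largest rises and falls among called genes at 50 TPM or more whose groups did not overlap, the 10 highest levels in each tissue and the genes of the interaction. Some genes that these rules name are not reported here. *Ppargc1a*, *Prdm16*, *Ebf2*, *Zic1*, *Fasn*, *Adrb3*, *mt-Co2*, *Cox7b*, *Pax1*, *Tnnt2*, *Tcf15*, *Meox2*, *Mcm2*, *Gmnn*, *Hmga2*, *Igf2*, *Hoxa10*, *Gli1*, *Axin2*, *Lgr6*, *Acvr1c*, *Klb*, *Fgfr4*, *Aldh1a2*, *Rxrg*, *Hoxa9*, *Klk1b22* and *Lncbate1* were singled out after their values were seen. Promoters were read from the GRCm39 genome at the transcript starts of the deposited annotation. The 5 stretches printed were those with the largest fold change among list members called in the list's main direction, at 50 TPM or more in a tissue, whose 200 bases before the start held the motif and no annotated exon.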

Additional observations from a re-analysis of the deposited data

Results flagged for a closer look

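Single libraries stood far from the others of their tissue in 10 of 152 sets of values by Dixon's criterion, which chance meets in about 1 of 20 sets. In wt iBAT replicate 1, muscle genes were high: *Myod1* was at 2.698 TPM (0.468 to 0.971 in the others), *Tnnt2* at 3.48 TPM (0.962 to 1.56), *Mylpf* at 969.8 TPM (213 to 374) and *Actc1* at 199 TPM (49.0 to 78.5). *Cox8a* was also highest there, at 5518 TPM (4764 to 4878). *Prkar2b* was at 1041 TPM in iBAT replicate 4 (966 to 987) and at 45.7 TPM in somite replicate 2 (47.7 to 48.0). *Rxrg* was at 68.2 TPM in iBAT replicate 3 (77.8 to 81.0 in the others). *Dpt* was at 32.3 TPM in somite replicate 2 (15.8 to 18.4). Somite replicate 1 had 18680 genes at 1 TPM or more, against 18230 to 18290 in the other 3.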

How the results depend on the processing

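Tissue and stage changed together, and the scaling decided the direction of modest differences, so that values near 0 depend on it. With a fold change of at least 4, 2772 genes were higher and 3224 lower. Over the other alternatives the calls ranged from 4102 (library totals) to 7216 (no fold limit) higher and from 4740 (mean of at least 5 TPM) to 10160 (library totals) lower. Leaving out each library gave 5938 to 6148 higher and 6635 to 6789 lower in wt, 6129 to 6185 and 6473 to 6657 in mutants, and 0 to 0 for the interaction with genotype, where DESeq2 called 2. Genes at 20 TPM or more in one tissue and under 1 TPM in the other numbered 43 for iBAT and 155 for somites, again on the TPM scale that lies lower in iBAT. On log2(TPM + 1) the median turned to -0.13 for brown fat regulators, -0.18 for fatty acid synthesis and -0.70 for cell cycle inhibitors and exit. It turned to -0.33 for macrophages and -0.76 for cytosolic ribosomal proteins. The values of *Prdm16*, *Fasn* and *Rplp1* turned to -0.46, -0.34 and -0.27. With library totals the medians of cell cycle inhibitors and exit and of cytosolic ribosomal proteins turned to -0.15 and -0.19, and *Eef1a1* turned to -0.63. The calls of *Prdm16* (0.07), *Fasn* (0.33) and *Rplp1* (0.30) were lost with them, and *Mylpf* (-0.76), *Meox2* (-0.67) and *Dlk1* (-0.79) were called. These shifts follow from the scaling, whose median change against TMM was -0.64. Counts without the mitochondrial genome and its nuclear copy, for protein-coding genes alone and without other cell types' markers were chosen after seeing the data.

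The libraries share replicate numbers, but the deviations of same-numbered iBAT and somite libraries did not correlate over 0.1 in any of 4 pairs (r = 0.0729, -0.053, 0.0218 and 0.0933). With the number as a replicate block, 5903 genes were higher and 6802 lower in wt, 6088 and 6374 in mutants, and 0 depended on genotype.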
